A study of Mus musculus with 3 samples.

Results

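The 4 wells described here were filed together as oxindole inhibitors of the VEGF and PDGF receptor kinases: Toceranib, Toceranib phosphate, SU14813 and nintedanib, which the labels list as BIBF_1120_(esylate). They were found by compound name among the 221 compound wells of a screen, in a table of 253 wells in all. The rule used no measured value, but earlier results of these data were known when it was set. Each compound well received mouse embryonic fibroblasts (MEF) and the CFAE+8 medium, together with a single compound from a purchased set of kinase inhibitors. It was read after 4 days. The sources used here give no dose and no number of embryos, litters or cultures behind the cells. RNA was read by DRUG-seq2, in which each well receives a barcode and all wells of a plate are sequenced as 1 pooled library. Toceranib, Toceranib phosphate and SU14813 were on plate 1 and nintedanib was on plate 2. No well of these plates was named as a vehicle control, so the reference was the other usable compound wells of the same plate, 87 on plate 1 and 85 on plate 2. The plate 2 well CHR_6494, which had ordinary counts, was not used, because its name was read as a chromosome. The reference is thus a mixture of kinase inhibitors in the same medium, and a response that many of them share is not visible against it. The p-values measure the spread between wells of 1 pooled library per plate, which may be partly technical.

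Receptors of the PDGF and VEGF families are tyrosine kinases that, once bound by their ligands, pass signals to the RAS-ERK and PI3K-AKT routes. PDGF receptors are the ones fibroblasts are known to use, whereas VEGF receptors are known mainly from endothelial cells. Toceranib is a veterinary drug for canine mast cell tumours that blocks PDGF, VEGF and KIT receptors, and its phosphate is a salt of the same molecule. Nintedanib is a drug for lung fibrosis that blocks PDGF, VEGF and FGF receptors, used here as its esylate salt. Toceranib and nintedanib share an oxindole core. In toceranib the core carries a fluorine and is joined to a pyrrole with a basic amide chain, whereas in nintedanib it carries a methyl ester and is joined to a phenyl ring and an anilino group. SU14813 is known by its code only, and its structure is not described here.

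The wells differed in depth. The total count was 245753 for Toceranib, 237475 for Toceranib phosphate and 172854 for SU14813, against a median of 318876 on plate 1 (45416 to 591025 over 90 wells). It was 718922 for nintedanib, against a median of 613609 on plate 2 (92437 to 1206219 over 86 wells). Between 8759 genes (SU14813) and 12289 genes (nintedanib) had at least 1 count. The part of depth in the differences below was not tested beyond 1 refit, in which the plate 1 reference was limited to the 41 wells under the median total. Toceranib, SU14813 and Toceranib phosphate were neighbours in the barcode list, at positions 75, 76 and 77. Profiles of neighbours in that list had a median Pearson correlation over genes of 0.0466, against 0.00197 over all 4005 pairs of plate 1 wells. All 15 fibroblast markers were detected in each of the 4 wells. Their summed level was 5698 to 7998 CPM (counts scaled to the well total), within the range of the reference wells. Of 10 markers each, 6 endothelial, 6 macrophage and 4 epithelial markers had 0 counts in all 4 wells.

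The promoters of 3 genes that fell in these wells are shown because each holds a known response motif close to its start, which most listed targets do not. Of the 11 p53 targets with a promoter entry, 1 (Cdkn1a) held the p53-type motif described next, and 0 of 11 ERK targets held the AP-1 motif. Cdkn1a encodes the cell cycle inhibitor p21 and is the best known target of the transcription factor p53. The p53-type motif searched was CATG, any 6 bases and CATG again, which is its own reverse complement, so both strands were covered. Mmp3 and Mmp10 encode stromelysins, secreted proteases that cut matrix and are classical targets of AP-1, the FOS and JUN dimer downstream of ERK. The AP-1 motif searched was TGANTCA, also its own reverse complement. The windows run from 250 bases before to 50 bases after a RefSeq start on GRCm38.p6, 5′ to 3′ on the plus strand, and capitals mark the motif match.
Cdkn1a, upstream start, chr17:29090729-29091028: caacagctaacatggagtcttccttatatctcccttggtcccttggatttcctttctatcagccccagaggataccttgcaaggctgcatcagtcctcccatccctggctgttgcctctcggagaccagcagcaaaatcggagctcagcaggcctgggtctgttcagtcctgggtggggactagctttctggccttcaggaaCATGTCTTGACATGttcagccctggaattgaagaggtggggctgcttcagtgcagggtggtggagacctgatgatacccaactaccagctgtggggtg
Mmp3, chr9:7445572-7445871: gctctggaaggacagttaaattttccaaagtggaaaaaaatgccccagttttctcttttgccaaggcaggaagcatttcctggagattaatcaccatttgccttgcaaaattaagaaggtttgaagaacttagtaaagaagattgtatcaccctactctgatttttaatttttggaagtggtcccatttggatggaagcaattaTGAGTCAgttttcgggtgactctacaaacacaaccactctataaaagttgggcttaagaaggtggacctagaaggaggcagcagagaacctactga
Mmp10, chr9:7502092-7502391: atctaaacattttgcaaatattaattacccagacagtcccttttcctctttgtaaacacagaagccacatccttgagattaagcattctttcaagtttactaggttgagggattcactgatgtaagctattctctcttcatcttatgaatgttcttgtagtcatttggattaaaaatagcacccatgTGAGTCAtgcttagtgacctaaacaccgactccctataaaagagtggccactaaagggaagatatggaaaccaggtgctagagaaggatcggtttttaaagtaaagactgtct
The match began 48 bases before the start in Cdkn1a, 46 in Mmp3 and 63 in Mmp10. The second Cdkn1a start on this assembly had 0 matches in its window. Among 32851 promoters of the same length, 0.7123% held the p53-type motif, 7.808% held the AP-1 motif and 57 held both. A match is a description of letters, not a measured binding site. These genes were chosen for display after their values were seen.

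Taken as 1 group against the reference wells with a plate term, the 4 inhibitor wells had 226 higher and 154 lower genes among 7407 tested. That is 5.13% of genes (3.05% higher and 2.08% lower) at an adjusted p under 0.05 in edgeR's quasi-likelihood test. A total of 104 of the 380 called genes differed at least 2-fold. The count rested on each well: it was 221 without Toceranib, 226 without Toceranib phosphate, 70 without SU14813 and 182 without nintedanib. Toceranib and Toceranib phosphate are the same molecule, and no refit left out just that pair, so leaving out toceranib as a compound was not tested. All 4 wells moved in the same direction in 334 of the called genes, which these wells themselves selected, and in 2154 of the 7407 tested (29.1%). Only 22 genes were called in all 4 of those refits, 12 higher and 10 lower. They are described first, with the genes of the p53 list, and were picked out after their values were seen. With the shallower plate 1 reference the group had 259 called genes, of which 239 were also in the first count.

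Some targets of p53 fell. Of the 15 listed genes, all tested, 4 fell and 0 rose, while 2.08% of all genes fell. A total of 13 had negative estimates, with a median log2 fold change of -0.54 against -0.03 over all genes. Cdkn1a (chr17:29090976-29100727, plus strand) was at 920 CPM with Toceranib, 1171 with Toceranib phosphate, 636 with SU14813 and 864 with nintedanib. The reference wells ran from 1004 to 2782 CPM on plate 1 (median 1660) and from 1112 to 3332 on plate 2 (median 1826). Therefore 3 of the inhibitor wells were below every reference well of their plate, and Toceranib phosphate was above 5 of 87. Cdkn1a fell by 0.82 ± 0.14 (SE) on the log2 scale (adjusted p = 0.000128), and by 0.73 to 0.99 when any 1 of the 4 wells was left out. An unstranded count could include reads from AC167363.2, which overlaps its exons on the opposite strand.

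Phlda3 (chr1:135766119-135769136), a p53 target that restrains AKT at the membrane, was low as well. Its levels were 582, 522, 347 and 694 CPM in the order Toceranib, Toceranib phosphate, SU14813 and nintedanib, against plate medians of 862 and 1031. SU14813 was below all 87 reference wells, while 1 to 3 reference wells lay below each of the others. The group estimate was -0.62 ± 0.11 (adjusted p = 0.000128), and all 4 refits without a well kept the call. On plate 2 alone, where nintedanib was the only inhibitor well of the group, the call was lost (-0.54). Sesn2, a stress-induced inhibitor of mTORC1, read 36.6, 42.1, 11.6 and 51.5 CPM against medians of 76.4 and 76.3. It fell by 0.87 ± 0.21 (adjusted p = 0.00535), but without SU14813, where it had 2 counts, the estimate was -0.70 (adjusted p = 0.086). Mdm2, the ubiquitin ligase that p53 both induces and is degraded by, fell by 0.95 ± 0.30 (adjusted p = 0.0399). Its call was lost without nintedanib (-0.75), SU14813 (-0.90) or Toceranib phosphate (-1.03), and with the shallower reference (-0.90, adjusted p = 0.0636). Gdf15 (-1.20), Bbc3 (-0.67), Bax (-0.07) and Ccng1 (-0.07) did not pass the test.

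**Figure D1:**
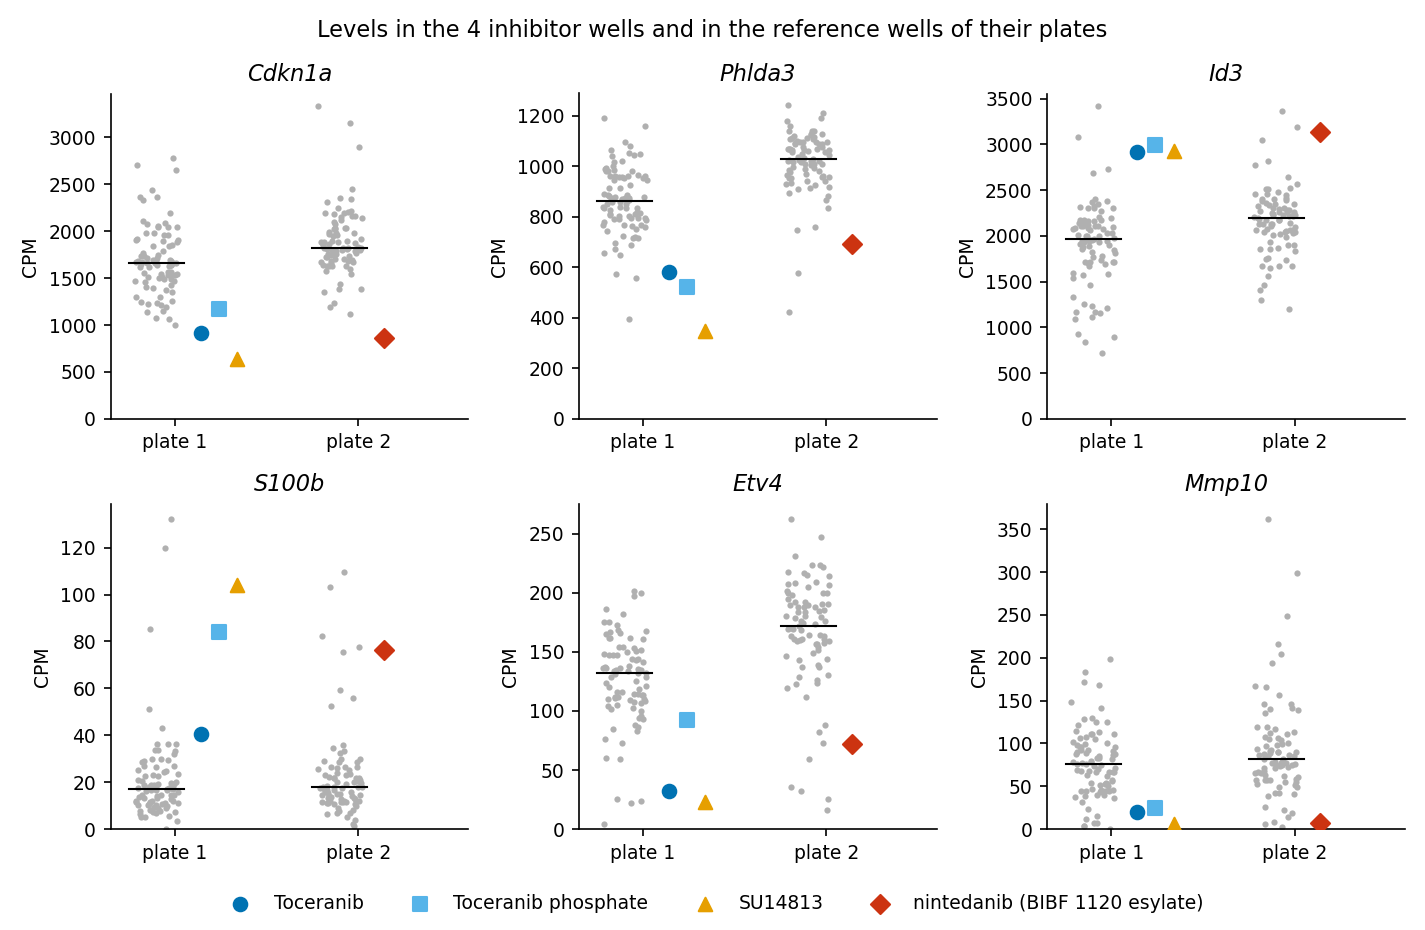
CPM of 6 genes in the 4 inhibitor wells (coloured symbols) and in the 87 and 85 reference wells of plates 1 and 2 (grey points, with a line at the median). Cdkn1a and Phlda3 were low and Id3 and S100b were high in all 4 wells, and Etv4 and Mmp10 were low, with some reference wells reaching the level of at least 1 inhibitor well for each of the 6 genes.

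Other genes that fell in every refit that left out a well belong to growth factor signalling and other functions. Irs1, the adaptor between the insulin receptors and PI3K, fell by 1.16 ± 0.27, and its levels were 16.3, 37.9, 17.4 and 48.7 CPM against medians of 75.4 and 85.4. Akt1s1, which encodes the mTORC1 inhibitor PRAS40, fell by 0.84 ± 0.18. Its exons overlap those of Tbc1d17 on the opposite strand. Cpe, which encodes carboxypeptidase E, a protease of the secretory pathway, fell by 1.18 ± 0.26. Zak, a stress-activated kinase upstream of JNK and p38, fell by 0.90 ± 0.19. Frmd8, a partner of the iRhom proteins in the release of EGF family ligands, fell by 1.20 ± 0.22.

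The genes that rose in every refit that left out a well have varied functions. Ndufc1, a complex I subunit, rose by 0.78 ± 0.14 on the log2 scale, with levels of 724, 674, 769 and 573 CPM against medians of 442 and 395. Uqcr11, a complex III subunit, rose by 0.59 ± 0.12. Tmsb10, an actin-binding thymosin, stood at 1400, 1242, 1574 and 1324 CPM against medians of 809 and 826, a rise of 0.87 ± 0.17. The wells on plate 1 with these rises were also shallower than most of their plate. Snapin, a protein of vesicle docking whose exons overlap Ilf2 on the opposite strand, rose by 1.17 ± 0.21. Egfl7, which encodes a secreted EGF-domain protein known from endothelial cells and hosts the microRNA miR-126, rose by 0.93 ± 0.20. Beside it, the summed level of the 10 endothelial markers was 102, 54.7, 98.3 and 20.9 CPM, against medians of 92.0 and 74.7.

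Id3, a dominant negative helix-loop-helix factor induced by BMP, was at 2913, 2998, 2927 and 3131 CPM. The plate medians were 1964 and 2198, and 2 reference wells on each plate were higher than the inhibitor wells. The rise was 0.74 ± 0.16 (adjusted p = 0.00306) and held in every refit that left out a well. It was the 1 called gene of the BMP list, in which 6 of the 8 tested genes had negative estimates (median -0.60). Id1 (-0.36) and Id2 (-0.25) did not pass the test. S100b, a calcium-binding protein best known from glia, stood at 40.7, 84.2, 104 and 76.5 CPM against medians of 17.2 and 17.9. It rose by 1.96 ± 0.40 (adjusted p = 0.00142), with 2 to 5 reference wells above each inhibitor well. The calls of Id3 and S100b were lost on plate 2 alone, where nintedanib was the only inhibitor well of the group.

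Some targets and feedback genes of the ERK pathway fell. Of the 11 tested among 19 listed, 3 fell, 0 rose and 10 had negative estimates, with a median of -0.88 against -0.03 over all genes, of which 2.08% fell. Etv4, an ETS factor induced by ERK, was at 32.6, 92.6, 23.1 and 72.3 CPM against medians of 132 and 172. It fell by 1.15 ± 0.32 (adjusted p = 0.0168), and between 2 and 12 reference wells were lower than each inhibitor well. Fosl1, the AP-1 subunit FRA1, read 44.8, 80.0, 46.3 and 25.0 CPM against medians of 111 and 105 and fell by 1.17 ± 0.38 (adjusted p = 0.0431). Egr1, an immediate early gene of ERK signalling, had 0, 1, 0 and 1 counts, against medians of 11.9 and 12.6 CPM, and its fitted change was -2.96 ± 0.87 (adjusted p = 0.0250). In Toceranib its 0 counts put it at least 1.15-fold lower than the pooled reference, and in SU14813 the floor of 3 counts lies above the reference. These 3 calls held only without Toceranib phosphate. They were lost without nintedanib (Etv4 -1.14, Fosl1 -0.81, Egr1 -2.85), without SU14813 (-1.02, -1.21 and -2.81) and without Toceranib (-1.01, -1.16 and -2.72). Fosl1 also missed the threshold with the shallower reference (adjusted p = 0.0507). Dusp4 (-1.21), Ccnd1 (-0.51) and Etv5 (-0.46) did not pass the test.

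The stromelysin genes shown above with their AP-1 motif were low in all 4 wells. Mmp10 (chr9:7502352-7510240) was at 20.3, 25.3, 5.79 and 6.95 CPM, from 5, 6, 1 and 5 counts, against medians of 76.2 and 81.5. Between 2 and 8 reference wells lay below each inhibitor well. It fell by 2.53 ± 0.67 (adjusted p = 0.0134), a call lost without nintedanib (-1.89) or SU14813 (-2.44). Mmp3 read 69.2, 54.7, 34.7 and 68.2 CPM against medians of 207 and 229 and fell by 1.82 ± 0.50 (adjusted p = 0.0162). Its call was kept without Toceranib (-1.92) and lost without nintedanib (-1.80), SU14813 (-1.73) or Toceranib phosphate (-1.82). Mmp13, a collagenase of the same gene cluster, had an estimate of -0.81 ± 0.49 that did not pass the test (adjusted p = 0.339).

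Pf4 fell most among the called genes that averaged 10 CPM or more and were lower in all 4 wells. It encodes platelet factor 4, a chemokine of platelets and tissue macrophages, and had 1, 2, 0 and 2 counts in the 4 wells. The reference medians were 55.0 and 51.9 CPM, and 0 to 5 reference wells lay below each inhibitor well. The fitted change was -3.92 ± 1.04 (adjusted p = 0.0134). In SU14813 it was at least 3.83-fold lower than the pooled reference. In nintedanib the ratio was 0.0440 (95% interval 0.00533 to 0.159, counting error only). The call was lost without nintedanib (-3.61) or SU14813 (-3.75). The 10 macrophage markers summed to 16.3, 37.9, 23.1 and 36.2 CPM, against medians of 79.2 and 86.0, with 6 to 8 of them at 0 in each well, and Toceranib lay below the lowest reference well (18.4). The 3 that could be tested had negative estimates and did not pass. Whether fewer macrophages or less RNA per macrophage lie behind this cannot be told apart in bulk wells, and the part of macrophage content in the Pf4 values was not tested.

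The genes of the receptors that these compounds are known to block gave no call. Only Pdgfra, Pdgfrb and Nrp1 of the 11 listed genes had enough counts to be tested, and 0 were called (estimates 0.23, 0.54 and 0.03). Pdgfra was at 16.3, 21.1, 5.79 and 27.8 CPM against medians of 16.7 and 19.7. Pdgfrb read 28.5, 37.9, 57.9 and 62.6 CPM against medians of 34.9 and 34.7, and both wells that were high had reference wells above them. The genes for the other receptors were near the floor: Kit, Flt3 and Ret had 0 counts in all 4 wells, and Kdr, Flt1, Flt4 and Csf1r were at 8.35 CPM or less. Of 8 ligand genes tested, 0 were called. Pdgfa (-0.75), Vegfa (-0.20) and Pgf (0.62) did not pass the test.

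Genes of mitosis had positive estimates, mostly below the threshold. Over all genes 3.05% were called higher, so 1 call in a list of 17 to 23 genes is near that share. All 19 tested of 24 listed had positive estimates, with a median of 0.58, but only Nusap1, a spindle microtubule protein, was called. Its rise of 1.56 ± 0.40 (adjusted p = 0.0116) came from 4, 5, 8 and 16 counts, and the call was lost without SU14813 (1.20). Tpx2 (0.70, adjusted p = 0.0518), Top2a (0.69) and Mki67 (0.47) did not pass. The 19 tested genes of DNA replication had a median of 0.14 with 0 called, 10 of them higher and 9 lower. Smooth muscle genes had a median of 0.47, with 1 of 17 called. That gene, the tropomyosin Tpm1, rose by 0.49 ± 0.13 and lost its call without SU14813 (0.38) or Toceranib phosphate (0.45) and with the shallower reference (0.37). The matrix list had a median of 0.29 with 1 of 23 called, the lysyl oxidase Loxl2 (0.95 ± 0.29, adjusted p = 0.0354). Its call was lost without nintedanib (0.59), SU14813 (0.99) or Toceranib phosphate (0.99), and with the shallower reference (0.87).

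**Figure D2:**
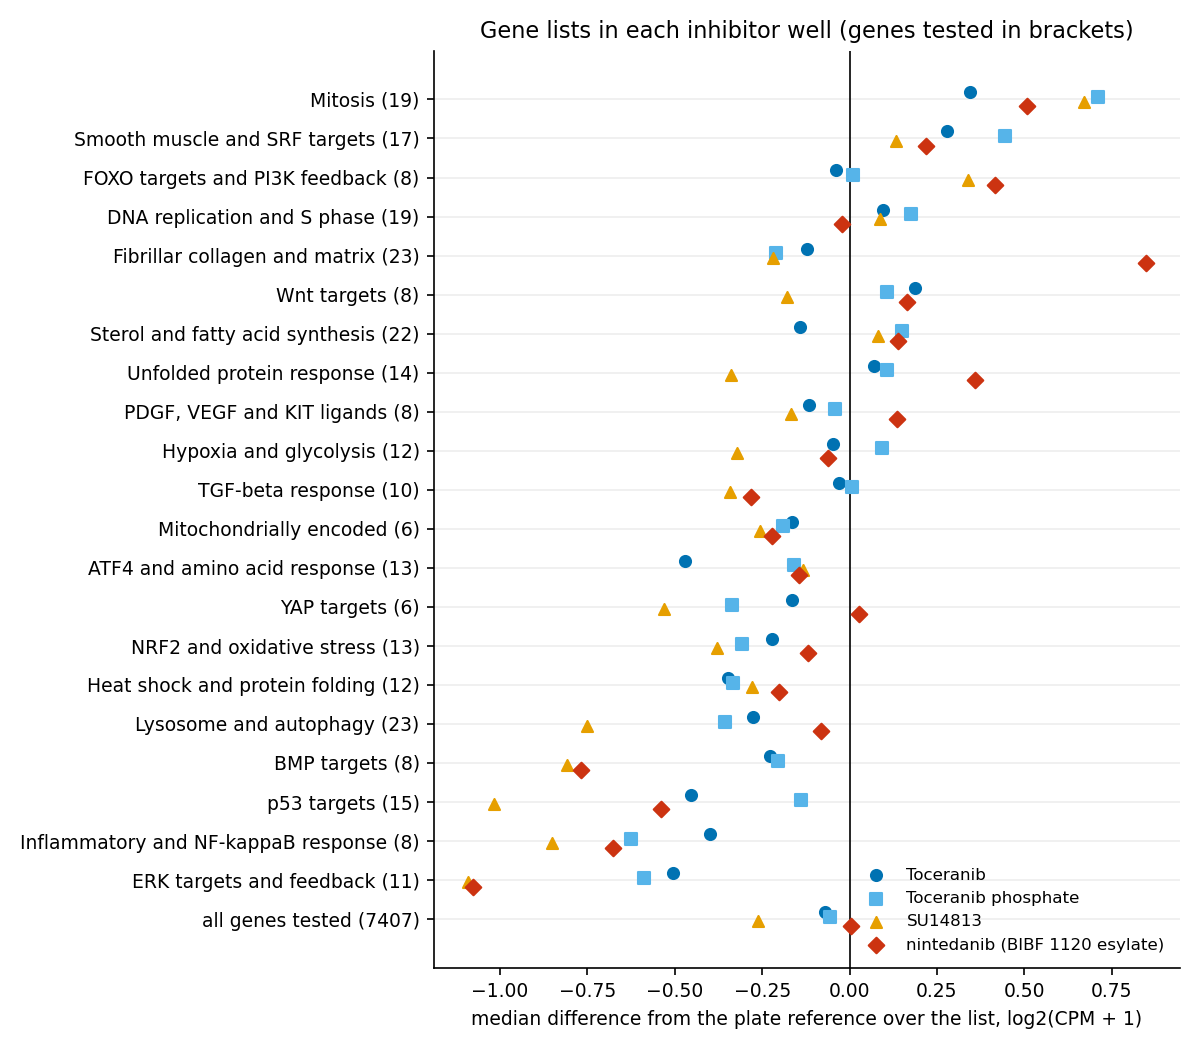
Median difference of each gene list from the plate reference in each inhibitor well, in log2(CPM + 1) units, for lists with at least 6 tested genes (their number in brackets) and for all 7407 genes (marker lists not shown). ERK and p53 targets lie to the left and mitosis to the right in all 4 wells, the matrix list is high with nintedanib alone, and the median of all genes with SU14813 is -0.26.

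The lists did not move alike in the 4 wells. Over the 23 matrix genes the median difference was -0.12, -0.21 and -0.22 on log2(CPM + 1) for Toceranib, Toceranib phosphate and SU14813, but 0.85 for nintedanib. The fibroblast markers showed the same split, with 0.86 for nintedanib and -0.13 to -0.01 for the others. ERK targets were at -0.50, -0.59, -1.09 and -1.08, low in all 4. The p53 list was at -0.45, -0.14, -1.02 and -0.54, and mitosis at 0.34, 0.71, 0.67 and 0.51. For SU14813 the median of all genes on this scale was -0.26, beside its lower total, so its list values are to be read against that.

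Most of the group's largest changes were carried by nintedanib. Of the 10 largest rises, 8 lost their call when that well was left out. Cpxm2 (2.53 with it, 0.47 without), Serping1 (2.33 and 1.09), Wbscr17 (1.72 and 1.16), Cybrd1 (1.69 and 1.15), Tceal5 (1.69 and 1.24) and Slc16a3 (1.64 and 1.02) lost it in that refit only, and Itih5 (1.85 and 0.19) also without SU14813 (2.02). Itga11, a collagen-binding integrin, fell from 1.71 to 0.41 without it and also lost its call without SU14813 (1.84) or Toceranib (1.86). Hist1h2ag, a replication-dependent histone gene, instead rested on Toceranib (1.22 without) and SU14813 (1.66 without). Itih5 and Itga11 missed the threshold with the shallower reference too (1.80 and 1.68). Among the falls, Dnm3os (-2.45 with nintedanib, -1.38 without) and Fam78b (-1.87 and -0.96) were also smaller and not called without that well. Psme4, which encodes a proteasome activator, lost its call in that refit with a larger estimate (-2.44 and -2.99, adjusted p = 0.0591). Car8 was lost without nintedanib (-1.20) or SU14813 (-2.25). Nefm, Wnt7b and Kcnj4 were called in 1, 1 and 0 of the 4 refits, and missed the threshold with the shallower reference (adjusted p = 0.0567, 0.0618 and 0.0669).

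**Figure D3:**
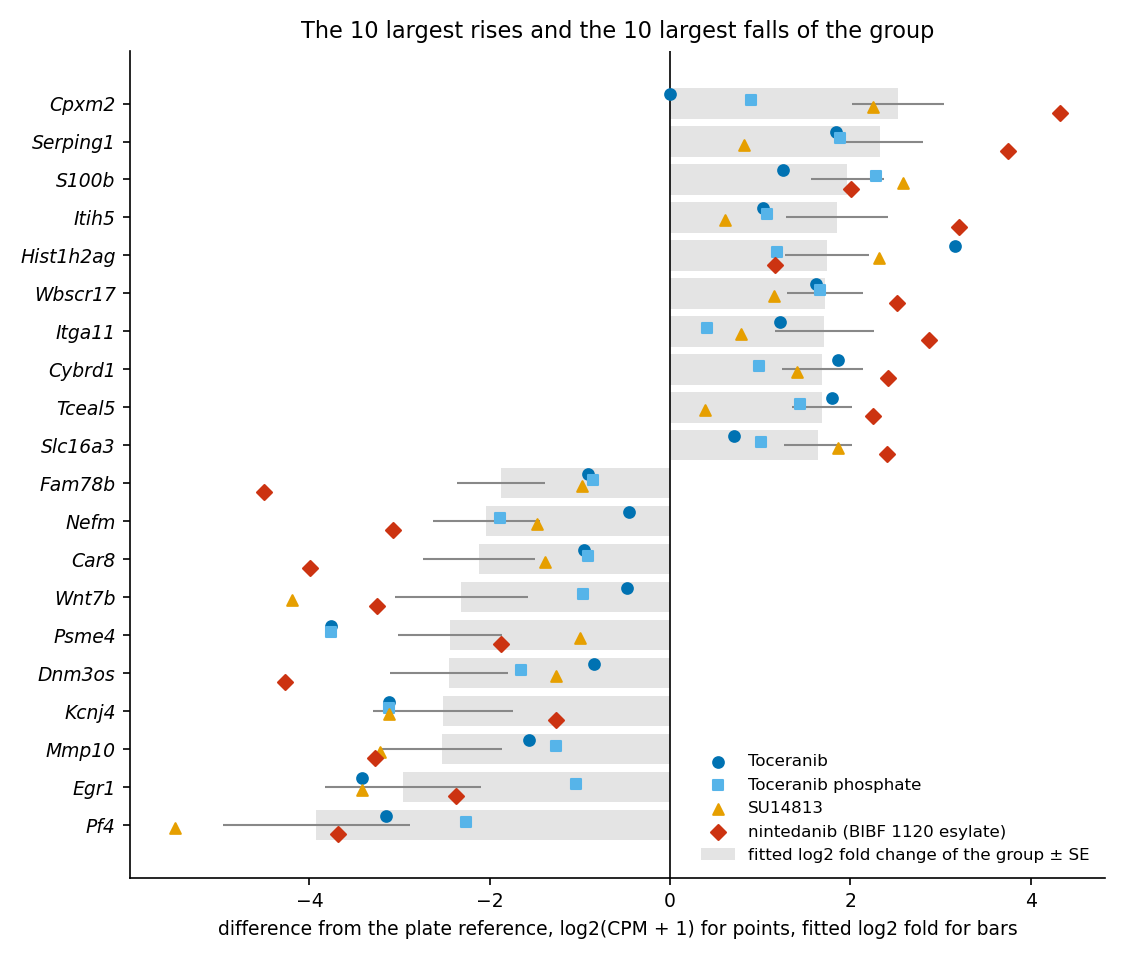
Changes of the 10 genes that rose most and the 10 that fell most in the group. Bars give the fitted log2 fold change with its SE and symbols give each well's difference from the plate reference in log2(CPM + 1); the nintedanib symbol is the outermost for Cpxm2, Serping1, Itih5, Fam78b and Car8, among others.

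Nintedanib on its own had 78 called genes among 9432 tested (0.827%), 60 higher (0.636%) and 18 lower (0.191%). This comparison has 1 treated well, assumed to vary like the other wells of plate 2. The count was 42 with DESeq2 and 241 when the 11 listed VEGFR, PDGFR and FGFR inhibitor wells were taken out of the reference. Those 11 do not include Dovitinib lactate or SU_5402. Cpxm2, a carboxypeptidase-like secreted protein, stood at 163 CPM from 117 counts, against a plate median of 7.80 and a highest reference well of 170. It rose by 3.70 ± 0.69 (adjusted p = 0.00175). Of the 20 named nintedanib calls that DESeq2 tested, 16 were lost with it, Serping1 among them, and 4 were kept. Serping1, the C1 inhibitor of complement, was at 114 CPM against 7.28 and rose by 3.36 ± 0.65. Both genes had 1 reference well above the nintedanib well.

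The other genes named for nintedanib by the size of their rise had the values below, and DESeq2 called 0 of these 8. Itih5, a hyaluronan-binding matrix protein, rose by 2.86 ± 0.71, Fndc1 by 2.56 ± 0.59, and Col12a1, a fibril-associated collagen, by 2.35 ± 0.59. Ly6a, the surface antigen SCA-1, was at 825 CPM against a median of 118 and rose by 2.50 ± 0.55, and its neighbour in family Ly6c1 rose by 2.41 ± 0.60. Sepp1, the selenium carrier selenoprotein P, rose by 2.37 ± 0.61, Pla2g16 by 2.43 ± 0.57 and the mitochondrial pyruvate carboxylase gene Pcx by 2.39 ± 0.48. Ly6a and Ly6c1 belong to a family of near-identical copies, so the split of reads between members is uncertain. For Ly6a, the plate 1 wells were at 163, 147 and 179 CPM against a median of 107, and 7 to 12 reference wells were higher. None of the lists reached more than 1 called gene in nintedanib. The matrix list had 0 of 24 called with a median of 0.71, against -0.04 over all genes.

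**Figure D4:**
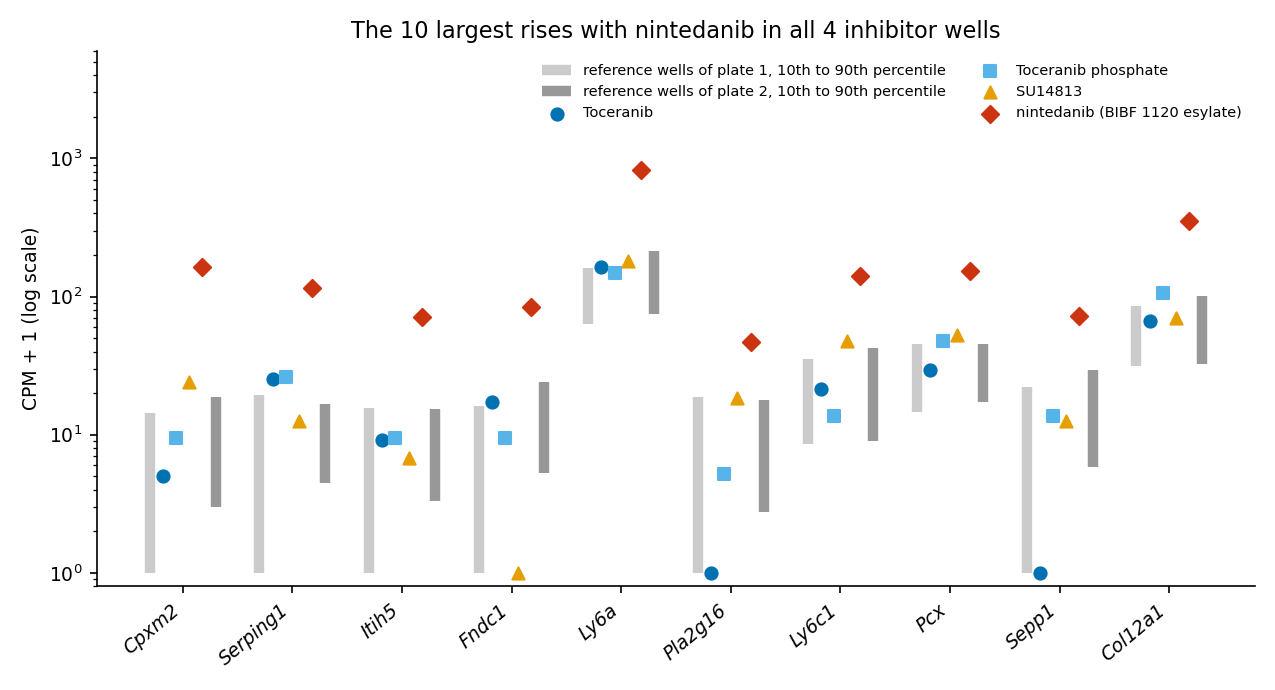
Levels of the 10 genes with the largest rise in the nintedanib well, as CPM + 1 on a log axis, in all 4 inhibitor wells (symbols), with bars from the 10th to the 90th percentile of the reference wells of each plate. The nintedanib symbols lie above the plate 2 bars for all 10 genes, and a plate 1 inhibitor symbol lies above the plate 1 bar for some of them, such as Cpxm2 with SU14813.

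Among the falls with nintedanib, Cdkn1a was the 1 called gene of the p53 list (-1.10 ± 0.25, adjusted p = 0.0110). Ereg, which encodes the EGF receptor ligand epiregulin and is induced by ERK, had 0 counts and was at least 5.58-fold lower than the pooled plate 2 reference. Dnm3os, the host transcript of the microRNAs miR-199a-2 and miR-214, also had 0 counts and was at least 4.78-fold lower. Dhx16, an RNA helicase of splicing, was at least 2.44-fold lower. Fam78b had 1 count, a ratio of 0.0226 (95% interval 0.000572 to 0.126, counting error only). Fam84a fell by 3.02 ± 0.74, from a median of 148 CPM to 18.1, and Ube2ql1 by 2.43 ± 0.64. The 16 tested ERK targets had a median of -1.09 (-0.97 with the 1 gene at 0 counts set at its bound), with 14 lower and 0 called.

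The plate 1 compounds gave few calls alone. The Toceranib and Toceranib phosphate wells, fitted together as 1 compound with 2 wells, had 0 of 7584 genes called (0%). A total of 723 genes had an unadjusted p under 0.05, and DESeq2 called 4. The smallest adjusted p was 0.0560, for Myeov2, with a log2 fold change of 0.90 ± 0.19. The estimates for Cdkn1a and Phlda3 were -0.58 ± 0.22 and -0.53 ± 0.17, and for the p53 list the median was -0.44 against -0.06 over all genes.

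SU14813 had 4 of 7584 genes called (0.0527%; 0.0396% higher and 0.0132% lower) from 1 well, assumed to vary like the others. The ribosomal protein gene Rps23 rose by 1.53 ± 0.34, the complex III subunit gene Uqcr10 by 1.35 ± 0.29 and the RNA-binding protein gene Lsm4 by 1.14 ± 0.25. Rps23 and Lsm4 were above all 87 reference wells, and 1 reference well was above Uqcr10. Bag6, a chaperone of newly made membrane proteins, fell by 1.54 ± 0.31 (adjusted p = 0.0178) and was below all 87 reference wells at 92.6 CPM. Rps23 has near-identical pseudogene copies, so its counts are uncertain. DESeq2 called 56 genes and a fit with no filter on low counts called 1. In 1 fit of both plates 3 genes were called, of which Bag6 was shared and Rps23, Uqcr10 and Lsm4 were not. The estimates for Cdkn1a and Phlda3 were -1.15 ± 0.33 and -1.06 ± 0.26, and they were not called (adjusted p = 0.160 and 0.0631).

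The compounds were also compared directly, as 4 pairs at the same time point, with p-values adjusted over all genes of the 4 pairs together. With no dose stated, whether the doses matched is not known. None of the pairs had a called gene: Toceranib phosphate against Toceranib (0 of 7584), toceranib against SU14813 (0 of 7584), toceranib against nintedanib (0 of 8772) and SU14813 against nintedanib (0 of 8772), each 0%. Genes with an unadjusted p under 0.05 numbered 223, 311, 552 and 515. DESeq2 was not run on the pairs. The median 95% interval of a difference reached 1.72, 1.68, 1.30 and 1.85 log2 units to either side. These intervals are not adjusted for the number of genes tested, so for a typical gene a call would need a larger difference than that. The missing calls do not show that the compounds act alike.

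The salt and free base of toceranib are the same molecule apart from the counter-ion. Their difference was 0.33 for Cdkn1a (95% interval -0.49 to 1.14) and -0.18 for Phlda3 (-0.82 to 0.47), both as phosphate minus base. Between toceranib and nintedanib, which differ in the ring system joined to the oxindole and in the ester or fluorine on it, Cdkn1a differed by 0.53 (-0.11 to 1.17) and Phlda3 by 0.01 (-0.49 to 0.50). Cpxm2 was 4.07 log2 units lower with toceranib (-7.21 to -0.92), and Fam78b was 4.17 higher (1.29 to 7.06). Both genes had already been called in this same nintedanib well, so their intervals carry that choice. Both intervals exclude 0, but neither gene passed the adjustment. SU14813 was lower than nintedanib in Bag6, a gene already called in this same SU14813 well, by 1.27 (interval -1.96 to -0.58). That difference was not called either. Toceranib and nintedanib were on different plates, and their difference is one of differences from each plate's own reference.

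The group was then set against 2 classes of inhibitors with related targets. The 8 wells came from a list of VEGFR and PDGFR inhibitor names (3 on plate 1, 5 on plate 2). Neither this list nor that of FGFR inhibitors held Dovitinib lactate, which blocks FGF, VEGF and PDGF receptors and stayed in the reference. Its levels were 1348 CPM for Cdkn1a, 869 for Phlda3, 3053 for Id3, 110 for S100b, 88.5 for Etv4 and 5.62 for Mmp10. Its Id3, S100b, Etv4 and Mmp10 levels were thus close to or within the range of the 4 inhibitor wells, and its Cdkn1a and Phlda3 levels were above them. Cdkn1a and Phlda3 were also low in other reference wells, named below with the whole profiles. SU_5402, likewise in neither list and kept in the reference, was at 1762 CPM for Cdkn1a, 1036 for Phlda3 and 2402 for Id3. Its S100b, Etv4 and Mmp10 levels were 17.99, 185 and 60.39 CPM. For each of these genes SU_5402 lay outside the range of the 4 inhibitor wells, on the side of the plate 2 median. The 8 listed wells had 0 of 7658 genes called against the reference (0%), with 239 genes at an unadjusted p under 0.05. DESeq2 was not run on these classes. The group minus these 8 wells had 106 called genes (1.38%), 67 higher (0.875%) and 39 lower (0.509%). The count was 32 without SU14813 and 21 without nintedanib. Cdkn1a was lower by 0.88 (95% interval -1.21 to -0.55, adjusted p = 0.00249) and Phlda3 by 0.65 (-0.90 to -0.40). These were the 2 called of 15 p53 targets, whose median was -0.55. The 8 wells themselves had estimates of 0.07 for Cdkn1a and 0.03 for Phlda3 against the reference. The 11 ERK targets all had negative differences with 0 called.

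The genes with the largest differences from these 8 wells included the matrix cross-linkers Lox (2.76) and Tgm2 (2.99), the chemokine Cxcl12 (2.94), Cpxm2 (3.14) and Serping1 (2.41), all higher in the group. Mmp10 (-2.55), Dnm3os (-2.73), Cadm2 (-2.35), Tmem200a (-2.21) and 1810011O10Rik (-2.06) were lower. All 10 lost their call without nintedanib, and 5, 3 and 1 of them lost it without SU14813, Toceranib and Toceranib phosphate. The levels of Lox were 12.2, 29.5, 46.3 and 117 CPM in the 4 wells, with reference medians of 9.75 and 8.86.

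Against the 3 FGFR inhibitor wells (Erdafitinib, FIIN_2 and S49076, all on plate 2), 342 genes were called (4.47%), 160 higher (2.09%) and 182 lower (2.38%) in the group. With RLE scaling the split was 142 higher and 239 lower. The count was 45 without SU14813, 78 without Toceranib, 109 without Toceranib phosphate and 633 without nintedanib. The FGFR wells had 915 called genes against the reference (11.9%), 615 higher (8.03%) and 300 lower (3.92%). In them 14 of 23 matrix genes rose and 9 of 11 ERK targets fell, with medians of 1.26 and -1.09. The 3 wells were unlike in Etv4 (16.5, 25.9 and 159 CPM for Erdafitinib, FIIN_2 and S49076) and Mmp10 (2.76, 8.64 and 52.2). Refits without one of these FGFR wells were not run. The group minus FGFR difference had 6 of 23 matrix genes called lower and 0 of 11 ERK targets called, with medians of -0.75 and 0.32. Of the p53 targets 3 of 15 were called lower. Cdkn1a was lower by 0.73 (95% interval -1.12 to -0.33, adjusted p = 0.0232) and Phlda3 by 0.60 (-0.91 to -0.30), while the FGFR wells had estimates of -0.09 and -0.02 for them. These contrasts use the same reference wells and the same 4 inhibitor wells.

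Cpxm2 and Serping1 did not differ detectably between the group and the FGFR wells, by -0.43 (95% interval -1.70 to 0.84) and -0.32 (-1.53 to 0.90). In the group, the calls of these genes against the reference rested on nintedanib, and without it the estimates were 0.47 and 1.09. Both rose in the FGFR wells, by 3.22 and 2.84. By contrast Sst, Saa3, Igfbp2, Fcer1g and Amotl2 had the largest differences downward from the FGFR wells. Saa3, an acute phase protein gene, had 0 counts in all 4 inhibitor wells, and Sst, the hormone somatostatin, had 1 count in Toceranib and 0 in the others. Hist1h2ag (2.73), Cenpl (2.44), Slc16a3 (2.25), Clu (2.17) and Slc39a8 (2.17) had the largest differences upward. Among these 10 genes, 4 lost their call without nintedanib, 6 without SU14813, 5 without Toceranib and 2 without Toceranib phosphate.

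Whole profiles gave nintedanib closer neighbours outside the group than within it. Likeness was the Pearson correlation over 7407 genes of the difference from the plate mean, with each well ranked among 175 others. These correlations are across genes and carry no p. For nintedanib the nearest well was Dovitinib lactate (0.652), an inhibitor of FGF, VEGF and PDGF receptors, then Erdafitinib (0.534), CCT196969 (0.517), the MEK inhibitor GDC_0623 (0.512) and ON123300 (0.476). SU14813 was its 12th nearest (0.265), Toceranib phosphate its 18th (0.185) and Toceranib its 19th (0.158). The root mean square deviation from the plate mean was 0.555 for nintedanib, rank 74 of 86 from the lowest on plate 2.

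The plate 1 wells had weaker and mutually similar neighbours. IRAK_inhibitor_6, BX517 and GNF_7 were among the 4 nearest of each. SU14813 was the 4th nearest to Toceranib (0.233) and the 3rd nearest to Toceranib phosphate (0.241), and each toceranib well was the 5th nearest to the other (0.228). For SU14813 the nearest was GNF_7 (0.321), with nintedanib 6th (0.265). Only 10% of all plate 1 pairs correlated above 0.0886, and of neighbours in the barcode list above 0.201. IRAK_inhibitor_6 and GNF_7 were on plate 2 and BX517 on plate 1. They stayed in the reference and were in neither comparator class. In the order BX517, IRAK_inhibitor_6 and GNF_7, Cdkn1a was at 1059, 1194 and 1112 CPM and Phlda3 at 576, 579 and 759. Id3 was at 3422, 3360 and 3191 CPM and S100b at 119.9, 75.6 and 82.5. Etv4 was at 59.96, 35.98 and 73.07 CPM and Mmp10 at 11.99, 14.39 and 18.86. Against the reference medians of their plates, Id3 and S100b were thus high and the other genes given low, as in the inhibitor wells. Deviations were 0.609 for Toceranib and 0.599 for Toceranib phosphate (ranks 68 and 65 of 90) while SU14813 ranked 85th, beside its low total.

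**Figure D5:**
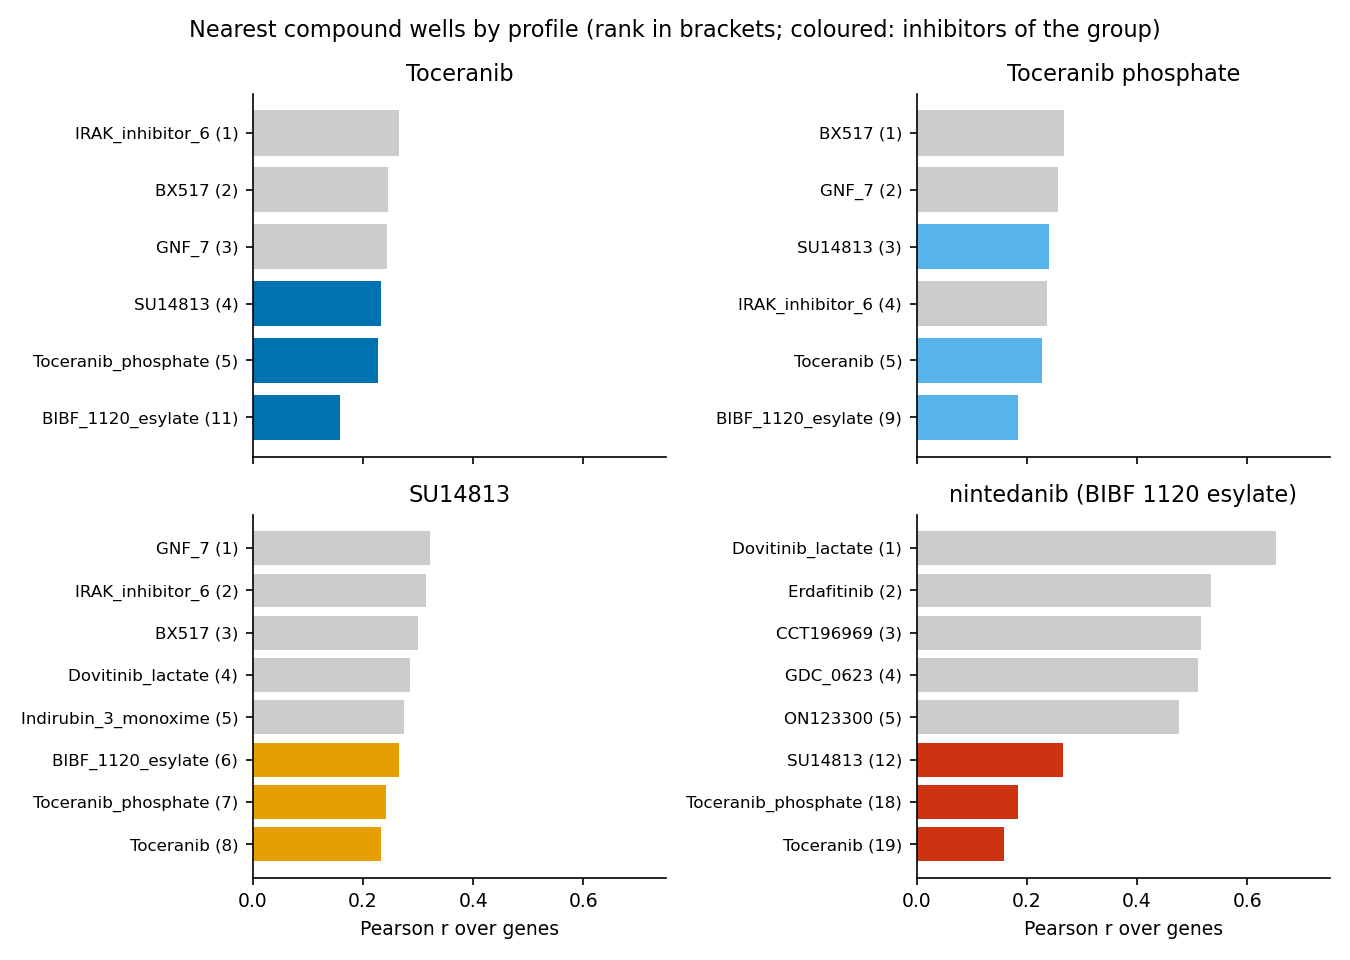
Pearson correlation over 7407 genes between each inhibitor well and its nearest compound wells of both plates, with ranks among 175 wells in brackets. Coloured bars are wells of the same group and grey bars are other compounds; nintedanib reaches 0.652 with Dovitinib lactate, while no bar of the plate 1 wells exceeds 0.321.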

How the data were processed

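Gene counts per well were measured by DRUG-seq2 on 3 plates, of which plates 1 and 2 hold the wells described here. The deposited table gives whole-number counts per gene and well, with no scaling by the authors, as its values show. The submitters' processing notes name STAR and the mm10 build. They name no counting tool, strand setting or treatment of molecular identifiers. Wells were assigned to plates by the deposited barcode lists and 17 of 274 columns were not used. Repeat columns (4) were merged, and wells under 10% of the plate median total (3 on these plates) were left out.

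Tests used edgeR 4.0.16 in R 4.3.3: TMM scaling, genes kept by filterByExpr (minimum count 10), the quasi-likelihood test and Benjamini-Hochberg adjustment over all genes tested, with a call at an adjusted p under 0.05. The group fit had a plate term. Single compounds were fitted within their plate. Unless another tool is named, adjusted p-values are edgeR's. CPM scales counts to the well total. A gene at 0 counts is set at 3 counts for a bound, and bounds and 95% ratio intervals cover counting error only. DESeq2 1.42.0, other scalings, filters, references and leaving out each well were alternatives. Named genes are the 10 largest rises and falls among the called genes whose mean reached 10 CPM (for the group, moving the same way in every inhibitor well), up to 4 called members of each list, and for comparisons with other classes the 5 largest in each direction. The members, lists and comparator classes were chosen with earlier results of these data known. Gene positions come from GENCODE vM21 on GRCm38, and promoters from RefSeq on GRCm38.p6. The fits were tested on simulated data.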

Additional observations from a re-analysis of the deposited data

Results flagged for a closer look

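In 3 of the 40 genes named for the group, 1 of the 4 inhibitor wells lay far from the other 3, by the ratio of its gap to the whole range. In each case it was nintedanib, and chance marks about 1 in 20 groups of this size. Fam78b differed from the plate reference by -4.50 on log2(CPM + 1) in that well and by -0.98 to -0.86 in the others. Car8, a carbonic anhydrase-related protein gene, stood at -3.99 there and at -1.38 to -0.91 in the others. Kcnj4, a potassium channel gene, stood at -1.27 in nintedanib, where it had 2 counts, and at -3.11 in the other 3 wells, which had 0 counts each.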

How the results depend on the processing

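No paired analysis was possible because each compound had 1 well per name and the plates carry no shared replicate numbers. Over the 40 genes named for the group, 0 estimates changed sign in the settings where they could be compared. All 40 calls held with RLE and with upper quartile scaling. DESeq2 could be compared for 25 of the 40 genes, of which 22 kept their call and 3 lost it. Cpxm2, Serping1, Itih5, Hist1h2ag, Wbscr17, Itga11, Cybrd1, Tceal5 and Slc16a3 were not among those 25, so DESeq2 did not check these rises. Plate 1 alone could be compared for 35 of the 40. DESeq2 gave 426 calls for the group, 319 of them shared. With no filter on low counts the calls numbered 174 for the group (86 higher, 88 lower), 1 for SU14813, 38 against the other VEGFR or PDGFR inhibitors and 76 against FGFR inhibitors (22 higher, 54 lower). Plate 1 alone gave 172 (124 higher, 48 lower) and plate 2 alone 78 (60 and 18), of which 135 and 36 were in the first count. Wells of at least 50% of the plate median gave 9 for SU14813. DESeq2 gave 4 for toceranib, 56 for SU14813 and 42 for nintedanib. The reference without the listed VEGFR, PDGFR and FGFR inhibitors gave 241 for nintedanib. Leaving out 1 well gave 70 to 226 for the group, 21 to 94 against the other VEGFR or PDGFR inhibitors and 45 to 633 against FGFR inhibitors. The cause of these shifts was not tested. Spearman correlations, and Pearson ones over the 1000 most variable genes, were 0.259 and 0.279 for Toceranib with its phosphate, 0.263 and 0.258 for Toceranib with SU14813, 0.172 and 0.210 for Toceranib with nintedanib, 0.278 and 0.300 for the phosphate with SU14813, 0.201 and 0.256 for the phosphate with nintedanib, and 0.260 and 0.389 for SU14813 with nintedanib. Depth limits the plate 1 wells most: 3 counts there were 12.2 to 17.4 CPM, against 4.17 for nintedanib. The shallower plate 1 reference was added after seeing the data and gave 259 calls for the group.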

Other observations

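Some genes of other lists also passed the test in the group. Scd1, Npc2, Ctsz and Canx were each the only called gene of their list, with 22, 5, 23 and 14 genes tested. Over all genes 5.13% were called, so 1 call in a list of 14 to 23 genes is near that share. The lysosome list, which holds Ctsz, had a median of -0.20. Scd1, the desaturase of stearoyl-CoA, rose by 0.81 ± 0.22, from 73.2, 75.8, 81.0 and 117 CPM against reference medians of 47.4 and 62.3. Its call was lost without nintedanib (0.75) or SU14813 (0.77). Npc2, a lysosomal cholesterol carrier, fell by 0.49 ± 0.13 (lost without SU14813, -0.44, and with the shallower plate 1 reference, -0.39), and the protease Ctsz rose by 0.48 ± 0.12 (lost without nintedanib, 0.33, or Toceranib, 0.45). Canx, a chaperone of the endoplasmic reticulum, rose by 0.59 ± 0.14 and lost its call without SU14813 (0.52). It was between 552 and 648 CPM against medians of 437 and 452, and 0 to 6 reference wells were higher.

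Slc3a2, the heavy chain of amino acid transporters and a target of ATF4, fell by 0.76 ± 0.22. It was at 179, 126, 52.1 and 236 CPM against medians of 265 and 287, and SU14813 lay below all 87 reference wells. The call was lost without SU14813 (-0.56) or Toceranib phosphate (-0.70), and with the shallower reference (-0.66). mt-Nd2, a mitochondrially encoded complex I subunit, fell by 1.04 ± 0.28, while the 6 tested genes of that list had a median of -0.08. Its call was lost without SU14813 (-0.96) or Toceranib (-0.99).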
